A study of Cucumis x hytivus and Cucumis hystrix and Cucumis sativus with 8 samples.

Results

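The microRNAs (miRNAs) of mature leaves were compared between a synthetic Cucumis allotetraploid and the cucumber that is its C. sativus parent. The comparison used 4 of the 8 small RNA libraries of the study, namely 2 of the mature allotetraploid leaf and 2 of the mature C. sativus leaf, and all 733 different mature sequences that the table lists, each taken once. Of these entries, 208 held enough reads to be tested and 525 did not. The allotetraploid, Cucumis × hytivus, carries the genomes of C. hystrix and C. sativus and was sampled as selfed plants of generation S10. The C. sativus plants were of the cultivar BeijingJietou, a diploid. The leaf taken was the first that had fully developed, and all plants were grown at 25 °C by day and 20 °C by night with 14 h of light and 10 h of dark. The other libraries were 2 of mature C. hystrix leaf and 2 of young allotetraploid leaf. They entered the choice of tested entries, the scaling between libraries and the shared estimate of spread. Values of C. hystrix are given beside some results for orientation. Libraries are called allotetraploid 1 and 2 and C. sativus 1 and 2 after the numbers in their titles.

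Plant miRNAs are cut by DICER-LIKE1 from a folded precursor as a duplex with a 5′-side (5p) and a 3′-side (3p) strand. Usually 1 strand is loaded into ARGONAUTE1 and directs the cleavage of nearly complementary messenger RNAs. Many families are shared by all land plants and act on transcription factors that shape leaves and set their age, on hormone receptors and on nutrient genes. The roles given below are those known from Arabidopsis and other land plants. In an allopolyploid, loci of both parents are present in each nucleus, so a leaf can hold the small RNAs of either parent or of both.

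The sequences that carry the comparison are shown here 5′ to 3′ as the table gives them, as DNA letters, with bases 2 to 8, the seed, in capitals. Names are those of the table without the species prefix, and -v2 or -v3 marks a further sequence listed under the same name. Predicted miRNAs, whose names begin with PC, carry no family number. PC-169-5p, PC-131-3p and miR171u-p5 in the first set were higher in both allotetraploid libraries than in both C. sativus libraries, and miR171c-p5, which overlapped, is shown as the near twin of miR171u-p5.
PC-169-5p: tCGGGAATagccacacaactc
PC-131-3p: aTTTAAGAtttgcagtatgaactt
miR171u-p5: tGTTGGAAcagttcaatc
miR171c-p5: tGTTGGAAcggttcaatc
The last 2 share their seed and differ by the substitution G10A, counted from 1 at the 5′ end, with the base of miR171c-p5 first. The miR166 sequences below are miR166a, the main form of a family that regulates leaf form, and 3 forms close to it. The first 3 share the seed CGGACCA, and miR166m does not.
miR166a: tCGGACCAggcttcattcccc
miR166a-v2: gCGGACCAggcttcattcccc
miR166e: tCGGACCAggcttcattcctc
miR166m: gCTGACCAggcttcattcccc
The miR164 sequences shown next share the seed GGAGAAG, the miR167 sequences shown the seed GAAGCTG, and miR319a and miR319c the seed TGGACTG.
miR164a: tGGAGAAGcagggcacgtgct
miR164c: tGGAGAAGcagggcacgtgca
miR167d: tGAAGCTGccagcatgatctg
miR167a: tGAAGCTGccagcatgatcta
miR319a: tTGGACTGaagggagctccc
miR319c: tTGGACTGaagggagctcct
The last set stood lower in the allotetraploid than in both C. sativus libraries and is made up mostly of strands opposite a better known miRNA.
miR168-p3: cCCGCCTTgcatcaactgaat
miR393b-p3: aTCATGCCatctctttggatt
miR397-p3: tCAGCGCTtcattcaatcacg
miR408a-3p: aTTCACTGcctcttccct
PC-20-3p: aATGTAGTtgtattcttaattatt

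The 2 C. sativus libraries were unlike each other, and the value in each of them is therefore given beside the results. Listed reads numbered 207032 and 378234 in the allotetraploid libraries and 239730 and 99196 in the C. sativus libraries, with each sequence counted once. The Spearman correlation over tested entries was 0.841 between the allotetraploid libraries and 0.572 between the C. sativus libraries, a description over entries that share libraries. More than 4-fold differences between libraries of the same group were found in 51 entries for the allotetraploid and in 116 for C. sativus, or 24.5% and 55.8% of those tested. Of the 116, 91 were higher in C. sativus 1 and 25 in C. sativus 2. No whole read of 38 tested entries was found in C. sativus 2, against 5 such entries in C. sativus 1 and 9 and 10 in allotetraploid 1 and 2. Of the 10 entries with the largest gap between the C. sativus libraries, 9 were higher in C. sativus 1, and for all 10 the groups overlapped. Among them miR390d-p3 was at 40.31 and 107.8 CPM in the allotetraploid, against 235.6 and 0 CPM in C. sativus. The exception, miR858b, was at 340.4 and 48.7 CPM in the allotetraploid, against 0 and 202.4 CPM. CPM are reads relative to the scaled size of a library. The labels do not say whether the libraries of a group came from separate plants, so a p-value here reflects the spread between samples that may be technical repeats. The labels' protocols name oligo(dT) beads, a tool for polyadenylated RNA, and describe no separate small RNA step. In whole leaves, fewer cells of a type and less of an RNA per cell cannot be told apart. No leaf-defining miRNA is known with certainty, and the families that are usually abundant in leaves, miR166, miR159, miR156 and miR172, were detected in all 4 libraries.

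The makeup of the libraries showed where C. sativus 2 departed. Families whose sequences are known from ribosomal, plastid or transfer RNA (miR5368, miR2916, miR894 and similar ones, called fragment-like below) took 17% and 11.5% of listed reads in the allotetraploid, against 17.1% and 56.9% in C. sativus 1 and 2. Such families are used here as a sign of RNA breakdown products among the reads. miR166, which limits HD-ZIP III factors in leaf polarity and meristems, took 44.7% and 44.1% in the allotetraploid, against 22.2% and 26.3% in C. sativus. Both allotetraploid shares were above both C. sativus shares. miR159, whose targets are MYB factors of the GAMYB type, took 24.1% and 37.6% in the allotetraploid, against 46.6% and 6.47% in C. sativus, so the groups overlapped. With the fragment-like families set aside, the share of miR166 was 53.8% and 49.8% in the allotetraploid, against 26.8% and 61.2% in C. sativus, and the groups then overlapped too. The share of reads 21 nt long, the usual size of DICER-LIKE1 products, was 61.1% and 51.3% in the allotetraploid, against 37.7% and 37.1% in C. sativus. Without the fragment-like families it was 68.8% and 56.4%, against 41.4% and 73%. Reads that began with T (U in RNA), the base preferred by ARGONAUTE1, made up 78.1% and 86.7% in the allotetraploid, against 76.9% and 45% in C. sativus. Without the fragment-like families these were 91.2% and 95.5%, against 90.9% and 85.7%. Sequences of 24 nt, the usual size of heterochromatic small RNAs, took 0.133% and 0.136%, against 0.229% and 0.147%. Without the fragment-like families they took 0.13% and 0.146%, against 0.268% and 0.28%. Only listed miRNA entries are counted, so these shares do not measure heterochromatic small RNAs. The exact (Clopper-Pearson) 95% intervals of shares of listed reads were at most 0.7 percentage points wide and cover counting error only.

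**Figure D1:**
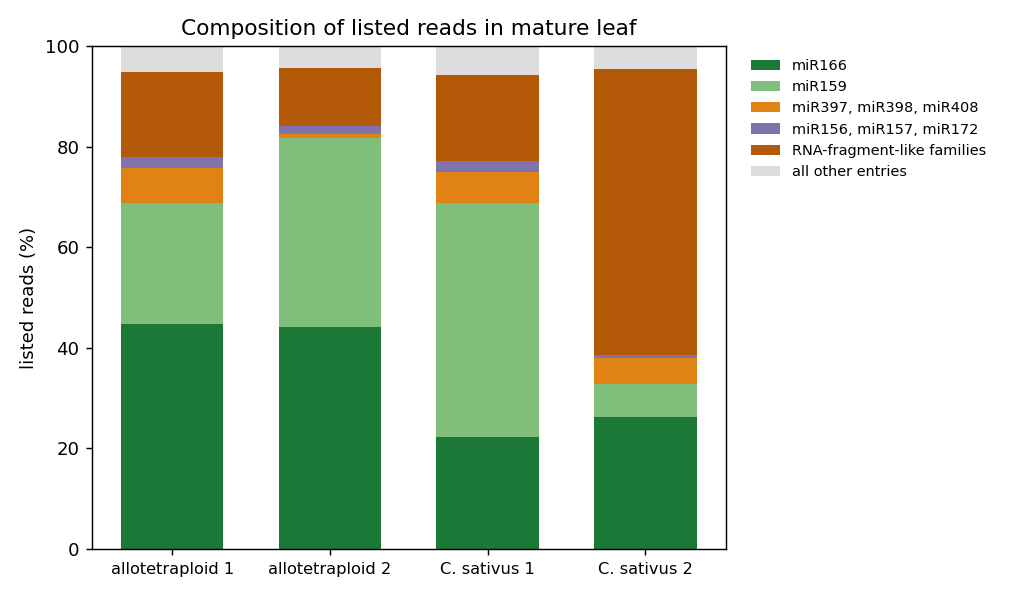
Listed reads (%) by family or group of families in each mature leaf library, with each sequence counted once and bars stacked to 100%. The fragment-like share is 17% and 11.5% in allotetraploid 1 and 2, 17.1% in C. sativus 1 and 56.9% in C. sativus 2.

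A single entry passed the test over all libraries, and it was a predicted miRNA with no known role. PC-169-5p, listed on the minus strand at chr7:8370983-8371159, had 863 and 1049 reads in the allotetraploid, against 7 and 0 in C. sativus. Scaled by library size to CPM, it was at 3865 and 3649 CPM in the allotetraploid, against 23.56 and 0 CPM in C. sativus. Both allotetraploid libraries were far above both C. sativus libraries and close to each other, while C. hystrix was higher still at 10880 and 23780 CPM. PC-169-5p rose by 8.16 on the log2 scale (SE 1.497, edgeR adjusted p = 0.00847, higher in 2 of 2 libraries). All edgeR values here come from its quasi-likelihood test, Benjamini-Hochberg adjusted over the tested entries. The size of the ratio depended on the C. sativus library: it was 12.99 without C. sativus 1, in which case C. sativus 2 had no read, and 7.29 (adjusted p = 0.0208) without C. sativus 2. Against the limit that no read in C. sativus 2 allows, 3 reads, its mean was at least 247-fold higher. The call was lost without allotetraploid 1 (adjusted p = 0.0719), without allotetraploid 2 (0.082) and without C. hystrix 2 (0.0634), in a range of 2.89e-11 to 0.082 over the alternatives.

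This was 1 of 208 entries, or 0.481% of those tested, with 1 higher and 0 lower. At an unadjusted p under 0.05 there were 13 entries (6.25%), 9 of them higher (4.33%) and 4 lower in the allotetraploid. DESeq2 called 4, of which 3 were higher and 1 lower, and limma on the deposited normalized values called 1. By function, entries at an unadjusted p under 0.05 numbered 4 of 49 for leaf growth, 3 of 19 for the juvenile-to-adult change, 2 of 18 for auxin, 1 of 5 for the small RNA machinery, 0 of 10 for copper and 0 of 10 for nutrients. The count of calls changed most with the C. sativus libraries. Without C. sativus 1 the count of calls was 51 entries (24.5% of those tested), 46 of them higher (22.1%) and 5 lower (2.4%). Without C. sativus 2 the count was 1 entry (0.481%), again PC-169-5p, with 28 at an unadjusted p under 0.05 (13.5%). In these fits the remaining C. sativus library is assumed to vary like the other groups. Of the 46 entries higher without C. sativus 1, 22 lay above C. sativus 1 as well, and for 24 the groups overlapped once C. sativus 1 was counted. Of the 46, 14 had no whole read in C. sativus 2. Their families were led by miR156 with 7 entries, miR171 with 5 and miR167 with 4. All 5 lower entries overlapped with C. sativus 1, and 2 of them were miR393a and miR393c.

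With 2 libraries against 2, an exact permutation test cannot go below p = 0.333, so entries are also described by whether the groups overlap. Libraries in random order would fail to overlap at that same rate, 0.333, with both directions counted. The counts are therefore a description only. Both allotetraploid libraries lay above both C. sativus libraries in 40 of 208 tested entries (19.2%) and below both in 22 (10.6%), and the groups overlapped in 146. With scaling to total listed reads 22 lay above both and 38 below both, so the balance of the counts turned with the scaling. The TMM scaling factors were 1.08 and 0.76 in the allotetraploid, against 1.25 and 2.00 in C. sativus, and a larger factor gives lower CPM. For entries and lists below, above both and below both refer to the TMM scale. The log2 fold change was above 0 in 110 and below 0 in 98 entries, against 67 and 141 with total listed reads. The mean of the allotetraploid on the log2(CPM + 1) scale was at least 2-fold above each C. sativus library in 24 entries (11.5%) and at least 2-fold below each in 15 (7.21%). Taken singly, 48 entries (23.1%) were at least 2-fold above C. sativus 1 and 59 (28.4%) below it, while 99 (47.6%) were at least 2-fold above C. sativus 2 and 40 (19.2%) below it. The C. sativus libraries gave opposite answers for some entries: 30 (14.4%) were at least 2-fold below C. sativus 1 and 2-fold above C. sativus 2, and 3 (1.44%) the other way round. The median difference over all tested entries was −0.135 against C. sativus 1 and +0.81 against C. sativus 2. Conserved families made up 31 of the 40 entries above both, 12 of the 22 below both and 111 of all 208. Predicted miRNAs made up 6, 8 and 36 of the same sets, and fragment-like entries 1, 2 and 42. Entries of 21 nt were 25 of the 40, 8 of the 22 and 88 of the 208.

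**Figure D2:**
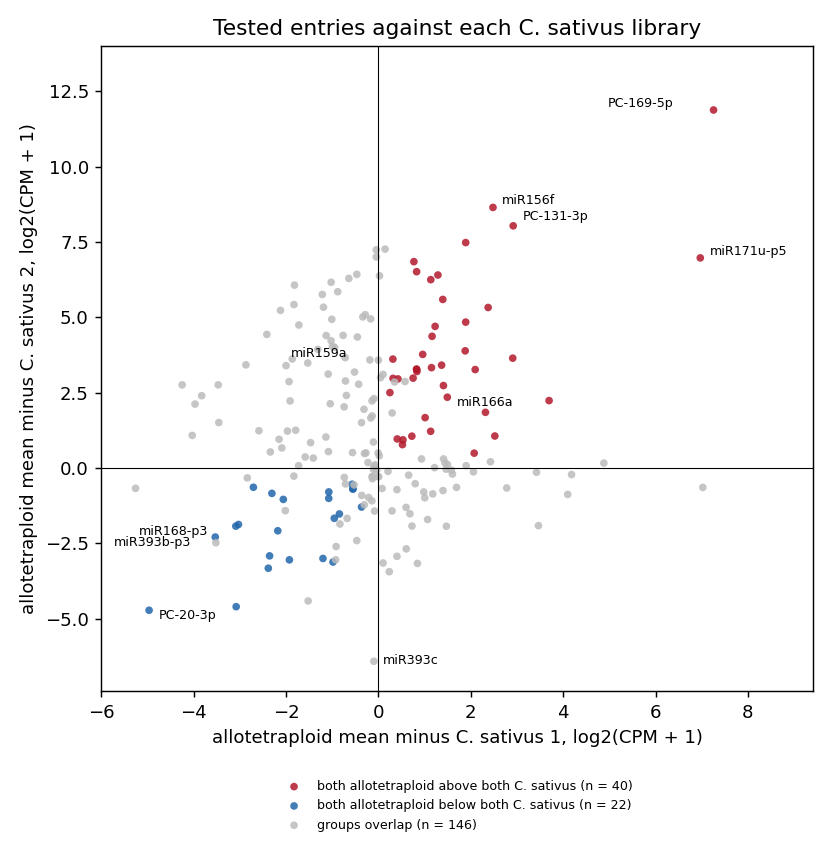
Each of the 208 tested entries by the difference of the allotetraploid mean from C. sativus 1 (horizontal axis) and from C. sativus 2 (vertical axis), both on the log2(CPM + 1) scale. The 40 red points lie above both C. sativus libraries and the 22 blue points below both (22 and 38 with scaling to total listed reads), and PC-169-5p stands at 7.26 and 11.88, while miR159a lies near 0 on the horizontal axis and at 3.59 on the vertical one.

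The miR171 5p strand gave a tested entry with no read in either C. sativus library. miR171u-p5, listed on the minus strand at chr1:241165-241252, had 31 and 32 reads in the allotetraploid, against 0 and 0 in C. sativus. It was at 138.8 and 111.3 CPM in the allotetraploid, which is at least 20.3-fold above C. sativus with 3 reads over that group as the limit (edgeR adjusted p = 0.203, 0.0219 in DESeq2). C. hystrix had 38.97 and 76.63 CPM. Its near twin miR171c-p5, listed in an overlapping interval of the same strand, chr1:241218-241304, was at 44.79 and 104.4 CPM in the allotetraploid, against 33.66 and 136.6 CPM in C. sativus, and the groups overlapped. Of the reads on this pair, the form with the G10A substitution held 75.6% (31 of 41, exact 95% interval 59.7% to 87.6%) and 51.6% (32 of 62, 38.6% to 64.5%) in the allotetraploid. In C. sativus it held 0 of 10 and 0 of 27, which allows shares of up to 30% and 11.1% with 3 reads as the limit, or 30.8% and 12.8% as upper ends of the exact 95% interval. In C. hystrix it held 11 of 26 and 13 of 13 reads. All these shares rest on 10 to 62 reads.

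Among the HD-ZIP III regulators, miR166a, which with miR159a was the most abundant entry over the 4 libraries, stood above both C. sativus libraries. miR166a, listed at several loci, was at 357900 and 504000 CPM in the allotetraploid, against 151100 and 83360 CPM in C. sativus. C. hystrix was at 640700 and 622100 CPM. Of the reads outside the fragment-like families, miR166a held 46.5% and 43.3% in the allotetraploid, against 22.6% and 38.6% in C. sativus, so the groups stayed apart but C. sativus 2 came close. The family as a whole overlapped on that base, as given above. The log2 fold change was +1.88 (SE 0.55, edgeR adjusted p = 0.221, not past the threshold), and it passed without C. sativus 1 (+2.37, adjusted p = 0.0098) but not without C. sativus 2 (+1.51, adjusted p = 0.233). It was +1.48 without the fragment-like families and +1.12 with scaling to total listed reads. The G-initial form miR166a-v2 was at 21500 and 19470 CPM, against 4790 and 2126 CPM in C. sativus (+2.57, SE 0.86, adjusted p = 0.304). miR166m, with a changed seed, was at 3870 and 5239 CPM, against 599.1 and 359.3 CPM (+3.25, SE 1.28, adjusted p = 0.577). Its C. hystrix libraries, at 347.2 and 6596 CPM, were further apart than the groups compared. Not all of the family stood on the same side. The nested forms miR166m-p3 and miR166m-p3-v2, which hold identical values, were at 434.4 and 737.4 CPM in the allotetraploid, against 831.4 and 916.1 CPM in C. sativus. miR166e was at 313.5 and 431.3 CPM, against 222.1 and 1397 CPM, and fell by 1.91 without C. sativus 1 (edgeR adjusted p = 0.0492). miR166i-p3, at 1536 and 1684 CPM in the allotetraploid and 895.3 and 14420 CPM in C. sativus, showed the same split between the C. sativus libraries. Summed over its sequences, the family was at 340900 and 636400 CPM, against 189500 and 190900 CPM in C. sativus (+1.36, SE 0.82, adjusted p = 0.876 among family sums). Family sums are scaled on their own, so they are not on the scale of single entries. Of 86 such sums and single entries without a family, 1 (1.16%) passed, again PC-169-5p.

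Regulators of organ boundaries and growth had several entries above both C. sativus libraries. miR164, which restrains NAC factors of the CUC group at leaf margins, had 3 of its 4 tested entries there, beside 19.2% of all tested entries. miR164a was at 949.5 and 640 CPM in the allotetraploid, against 296.2 and 15.18 CPM in C. sativus (+2.34, SE 1.17, edgeR adjusted p = 0.764). miR164c was at 550.9 and 351.3 CPM, against 87.51 and 121.5 CPM (+2.11, SE 1.011, adjusted p = 0.719), and was the member whose C. sativus libraries lay closest together. The opposite strand miR164b-3p was at 188.1 and 167 CPM, against 47.12 and 0 CPM (+2.83, adjusted p = 0.719). The miR164 family sum was at 1656 and 1389 CPM, against 661.1 and 226.5 CPM (+1.77, SE 0.89, adjusted p = 0.809 among family sums).

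For miR319, which acts on TCP factors of leaf growth, and miR159, the level depended on the C. sativus library. miR319c was at 3753 and 3461 CPM in the allotetraploid, against 2117 and 30.37 CPM in C. sativus. miR319a was at 3574 and 2202 CPM, against 3551 and 86.04 CPM. miR159a was at 217600 and 481600 CPM, against 368700 and 26940 CPM, and differed from C. sativus 1 by −0.187 and from C. sativus 2 by +3.59 on the log2(CPM + 1) scale. All of these were called higher without C. sativus 1, with edgeR adjusted p = 0.00516 for miR319c and 0.00814 for both miR319a and miR159a. For miR159a and miR319a, C. sativus 1 lay between the allotetraploid libraries. miR396, which limits growth-regulating factors, had entries of both strands on either side. miR396e-p3 was at 3574 and 6922 CPM in the allotetraploid, against 2804 and 516.2 CPM (+1.66), while miR396e on the other strand of its hairpin was at 376.2 and 466.1 CPM, against 2524 and 177.1 CPM (−1.68). The 5p form miR396b had a log2 fold change of +1.42 and the 3p-side miR396d-p3 of −0.92, both with overlapping groups. miR171m, of the family that acts on GRAS factors, was at 232.9 and 424.4 CPM, against 141.4 and 30.37 CPM (+1.92, adjusted p = 0.841). Of the 49 tested entries of these leaf-growth families (101 listed), 0 were called over all libraries, 14 lay above both C. sativus libraries and 4 below both (19.2% and 10.6% over all tested entries). Their median log2 fold change was +0.35, beside +0.16 over all tested entries, and it turned to −0.40 with scaling to total listed reads, −0.14 with TMM from conserved families and −0.03 without the fragment-like families. Against single libraries their median was −0.019 for C. sativus 1 and +2.03 for C. sativus 2.

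**Figure D3:**
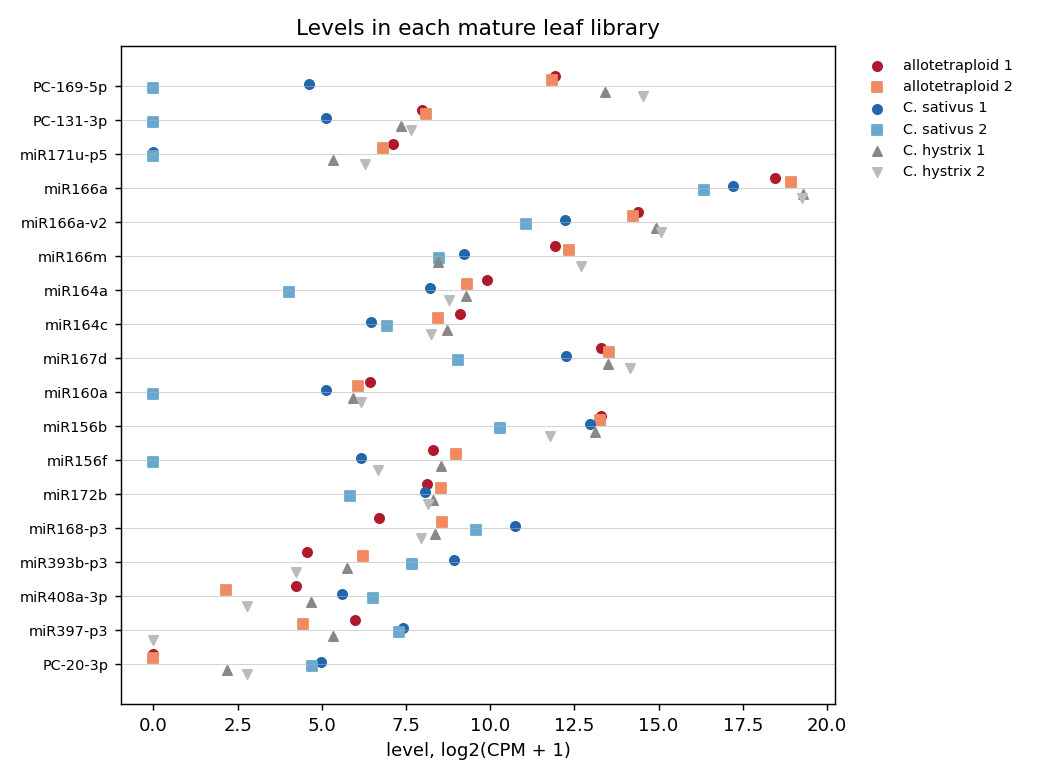
Level of 18 entries in each mature leaf library on the log2(CPM + 1) scale, with circles and squares for the libraries of a group and triangles for C. hystrix. The upper 13 entries lie above both C. sativus libraries in both allotetraploid libraries, and the lower 5, from miR168-p3 down, lie below both.

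Regulators of the juvenile-to-adult change were mostly on the higher side on the TMM scale, by little against C. sativus 1 and by much against C. sativus 2. miR156 keeps SPL factors low in juvenile leaves, and miR172 limits AP2-like factors later. miR156b was at 10080 and 9830 CPM in the allotetraploid, against 7994 and 1265 CPM in C. sativus (+1.10, SE 1.05, edgeR adjusted p = 0.924). miR156a was at 5043 and 4887 CPM, against 3999 and 404.9 CPM. In both cases the allotetraploid libraries lay close together and just above C. sativus 1 on the TMM scale. Relative to total listed reads, C. sativus 1 lay between the allotetraploid libraries for both. The miR156 family took 2.08% and 1.51% of listed reads in the allotetraploid, against 2.05% and 0.472% in C. sativus. Its family sum also overlapped, at 15850 and 21810 CPM, against 17510 and 3419 CPM. The entry miR156f stood further above C. sativus 1, at 313.5 and 507.9 CPM in the allotetraploid, against 70.68 and 0 CPM (+3.47, SE 1.40, adjusted p = 0.577). The strand miR156i-p3 was at 35.83 and 271.3 CPM, against 6.732 and 20.24 CPM (+3.52, SE 1.43, adjusted p = 0.577). miR172b was at 277.7 and 368.7 CPM, against 269.3 and 55.67 CPM, and miR172g-p3 at 219.5 and 121.7 CPM, against 43.76 and 10.12 CPM. The strand miR156c-p3 went against them, at 53.75 and 90.44 CPM in the allotetraploid and 148.1 and 121.5 CPM in C. sativus. Of 19 tested entries (40 listed), 16 had a log2 fold change above 0, beside 110 of all 208, and 0 were called. The 16 became 12 with total listed reads and 13 without allotetraploid 2 or without C. sativus 2. Both allotetraploid libraries lay above both C. sativus libraries in 9 and below both in 1 (19.2% and 10.6% over all tested entries). These counts are on the TMM scale. Relative to total listed reads, miR156a, miR156b and miR172b overlapped, so the 9 did not hold with that scaling. The median was +0.98 over all libraries, +0.48 with total listed reads and +0.32 without C. sativus 2, with +0.296 against C. sativus 1 and +2.87 against C. sativus 2. Without C. sativus 1, 7 of 13 tested entries of miR156 and 2 of 6 of miR172 rose, beside 22.1% of all tested entries, and without C. sativus 2 none of them passed the edgeR test.

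Auxin regulators stood on both sides. Above both C. sativus libraries were some miRNAs against auxin response factors (ARFs): miR160a was at 85.1 and 66.09 CPM, against 33.66 and 0 CPM in C. sativus. miR167d was at 10080 and 11770 CPM, against 4870 and 526.4 CPM (+2.02, SE 1.03, edgeR adjusted p = 0.771). Below both was a strand of miR393, which acts on the TIR1/AFB auxin receptors. This strand, miR393b-p3, listed on the plus strand at chr6:1038278-1038413, was at 22.39 and 73.05 CPM in the allotetraploid, against 481.3 and 202.4 CPM in C. sativus (−2.82, SE 1.18, adjusted p = 0.583). C. hystrix had 53.14 and 17.68 CPM, on the side of the allotetraploid. The receptor-directed strand miR393a of the same hairpin was at 80.62 and 153.1 CPM, against 94.24 and 1215 CPM, and miR393c at 8.958 and 38.26 CPM, against 20.2 and 1680 CPM. For both, a single C. sativus library held the high value. Without C. sativus 1 they fell by 3.37 (adjusted p = 0.0177) and 6.08 (adjusted p = 0.00489), and without C. sativus 2 miR393c differed by +0.25 (adjusted p = 0.984), all by edgeR. Not all of the family stood lower. The remaining tested entry, miR393a-3p, had 63 and 131 reads in the allotetraploid, against 227 and 8 in C. sativus (−0.13). It lay below C. sativus 1 and above C. sativus 2. The miR393 family sum was at 324.5 and 816.6 CPM, against 1450 and 4595 CPM (−2.40, SE 0.92, adjusted p = 0.277 among family sums). miR167e, of the ARF-directed family but with the changed seed CAAGCTG, also lay below both. It was at 98.53 and 118.3 CPM in the allotetraploid, against 228.9 and 217.6 CPM in C. sativus (−1.04, SE 1.04, edgeR adjusted p = 0.924). Of the 7 tested miR167 entries with the seed GAAGCTG, 2 lay above both and 0 below both (19.2% and 10.6% over all tested entries). The miR393 sum was the largest difference of a family sum among those whose groups did not overlap. miR390a, the trigger of TAS3 small RNAs, was at 80.62 and 34.78 CPM, against 124.5 and 0 CPM. Of 18 tested auxin entries (42 listed), 8 were above 0, 10 below, 0 called, 4 above both C. sativus libraries and 2 below both, close to the 19.2% and 10.6% over all tested entries.

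Copper-responsive miRNAs spare copper by removing messages of copper proteins, and the groups overlapped for their main forms. miR398a, which acts on Cu/Zn superoxide dismutase, was at 32240 and 4390 CPM in the allotetraploid, against 14370 and 8401 CPM in C. sativus. miR397, which acts on laccases, was at 9177 and 807 CPM, against 3056 and 860.4 CPM, and miR408, which acts on plantacyanin, at 17360 and 4258 CPM, against 28530 and 8138 CPM. Allotetraploid 1 was the high library each time within its group, and so was C. sativus 1. By family sum, C. hystrix 1 and 2 were at 2414 and 318.3 CPM for miR397 and at 31850 and 2458 CPM for miR408. For the miR398 family sum they were at 27210 and 2272 CPM, while C. sativus 1 and 2 were at 16270 and 16680 CPM. Whether library numbers mark a batch was not tested. Lesser sequences of the same families stood below both C. sativus libraries. miR408a-3p was at 17.92 and 3.478 CPM in the allotetraploid, against 47.12 and 91.1 CPM (−2.67, SE 1.74, edgeR adjusted p = 0.841). The strand miR397-p3 was at 62.7 and 20.87 CPM, against 168.3 and 156.9 CPM (−1.96, SE 1.495, adjusted p = 0.866), and the longer form miR398a-v3 at 116.4 and 24.35 CPM, against 124.5 and 435.3 CPM. Of 10 tested copper entries (15 listed), 3 were above 0, 7 below, 0 called, 0 above both C. sativus libraries and 3 below both (19.2% and 10.6% over all tested entries). Their median log2 fold change was −0.76 over all libraries and below 0 under each scaling. It was −0.03 without allotetraploid 2 and −2.32 without allotetraploid 1.

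The miRNA against ARGONAUTE1 showed a difference between its strands. miR168 itself was at 1697 and 1127 CPM in the allotetraploid, against 878.5 and 1630 CPM in C. sativus, and the groups overlapped. Its opposite strand miR168-p3, from the same hairpin on the minus strand at chr4:4716620-4716829, was at 103 and 382.6 CPM, against 1700 and 759.2 CPM (−2.34, SE 1.04, edgeR adjusted p = 0.617). miR162, which acts on DICER-LIKE1, was at 268.7 and 309.6 CPM, against 612.6 and 197.4 CPM. Of 5 tested entries for the small RNA machinery (14 listed), 2 were above 0 and 3 below, a split that RLE scaling turned into 0 and 5. The median of these 5, −0.49, was below 0 under each scaling, but it was +0.39 without allotetraploid 2 and +0.05 without C. sativus 2. The nutrient families had 10 tested entries of 34 listed, with 8 above 0, beside 110 of all 208, and 0 called. Without C. sativus 2, 6 were above 0. Their median, +0.91, was +0.09 with total listed reads. Above both C. sativus libraries lay 4 and below both 1 (19.2% and 10.6% over all tested entries). miR169 had 7 of the tested entries, 2 of them above both and 1 below both. Among the other nutrient families, miR827, a phosphate-status miRNA, was at 367.3 and 532.2 CPM in the allotetraploid, against 104.3 and 313.8 CPM. Relative to total listed reads its groups overlapped. So did its family sum, at 302.3 and 602.9 CPM, against 110.2 and 489.5 CPM. miR395a, induced by sulfate shortage, was at 152.3 and 34.78 CPM, against 26.93 and 10.12 CPM. The resistance-gene families had 5 listed entries and none with enough reads to test.

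**Figure D4:**
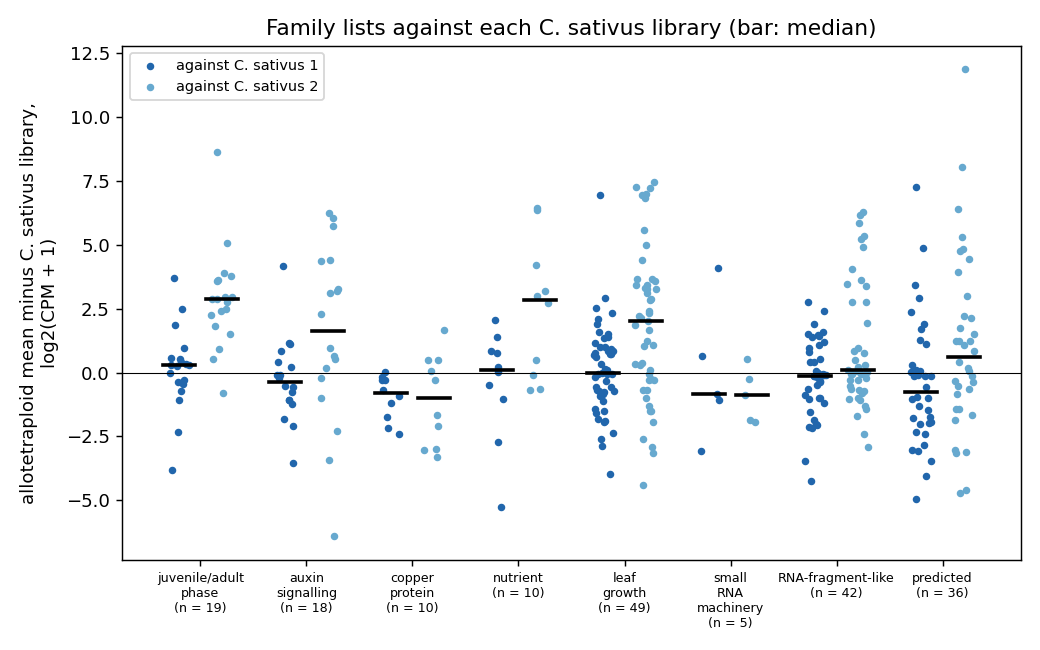
Difference of the allotetraploid mean from C. sativus 1 (dark) and from C. sativus 2 (light) for every tested entry of a list, on the log2(CPM + 1) scale, with the median as a bar. The phase list has medians of 0.296 and 2.87, the copper list −0.803 and −0.979, and the fragment-like list −0.122 and 0.096.

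Families known from tissues that may come along with a leaf were set beside these results. The phloem sap list (miR395, miR398, miR399, miR408, miR827 and miR2111; 11 tested of 29 listed) took 6.02% and 0.792% of listed reads in the allotetraploid, against 5.81% and 5.05% in C. sativus. Most of these reads were of the copper families, with 7540 of miR398 and 4761 of miR408 among 12459 in allotetraploid 1. The share is thus not separate from the copper results. Of its tested entries, miR395a and miR827 lay above both C. sativus libraries on the TMM scale, and miR398a-v3 and miR408a-3p below both. The list of shoot apex or primordia (miR164, miR171, miR319 and miR390; 23 tested of 51 listed) took 1.27% and 0.719%, against 1.24% and 0.177%. Its median was −0.34 against C. sativus 1 and +3.66 against C. sativus 2, so it moved with the gap between the C. sativus libraries, as did miR164a and miR319c above. The fragment-like families, 42 tested of 73 listed, took 17.1% and 56.9% of reads in C. sativus 1 and 2 but did not move as a set. From C. sativus 1 to 2, miR5368 went from 9.3% to 28.6% and miR2916 from 2.5% to 22.1%, while miR8155 went from 1.42% to 0.0192%. The median of the fragment-like families was −0.122 against C. sativus 1 and +0.096 against C. sativus 2. Their part in the values against C. sativus 2 was not tested beyond the scaling without them, which left 1 call.

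Fragment-like entries themselves lay above both C. sativus libraries in 1 case and below both in 2, of 42 tested (19.2% and 10.6% over all tested entries). miR5368-p5 was at 45930 and 77520 CPM in the allotetraploid, against 69120 and 117500 CPM in C. sativus, and miR2916-p3 at 41430 and 22650 CPM, against 14660 and 100100 CPM. miR8155 was at 6252 and 2024 CPM, against 6563 and 60.73 CPM. C. sativus 2 was thus the highest of the 4 libraries for miR5368-p5 and miR2916-p3 and the lowest for miR8155.

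Predicted miRNAs included the single call and had members on both sides. Of 36 tested (287 listed), 15 were above 0 and 21 below, beside 110 and 98 of all tested entries. With RLE scaling these counts were 14 and 22, beside 90 and 118. Their median was −0.24, which is less than the shift that scaling brings, 1 was called, 6 lay above both C. sativus libraries and 8 below both (19.2% and 10.6% over all tested entries). PC-131-3p, listed on the plus strand at chr4:8688831-8689071, was at 250.8 and 271.3 CPM in the allotetraploid, against 33.66 and 0 CPM in C. sativus (+3.84, SE 1.30, edgeR adjusted p = 0.304, 0.0402 in DESeq2). PC-260-3p, listed in an overlapping interval of the minus strand, chr4:8688634-8688896, was at 116.4 and 121.7 CPM, against 53.85 and 50.61 CPM. On this scale its libraries lay close together within each group, with the allotetraploid above both C. sativus libraries. These values rest on 26 and 35 reads in the allotetraploid, against 16 and 10 in C. sativus. Relative to total listed reads the groups overlapped. PC-88-5p, PC-132-5p and PC-159-3p also lay above both, with log2 fold changes of +3.28, +2.74 and +2.26. PC-24-5p, PC-142-5p and PC-40-3p lay below both, at −2.47, −2.39 and −2.11, and all 6 had an edgeR adjusted p = 0.841. PC-20-3p, listed on the minus strand at chr1:28311555-28311744, had 0 and 0 reads in the allotetraploid, against 9 and 5 in C. sativus, which is at least 4.8-fold lower with 3 reads over the allotetraploid as the limit (adjusted p = 0.617). The other strand of its hairpin, PC-20-5p, was the reverse, with 5 and 3.5 reads in the allotetraploid, against 0 and 0 in C. sativus. C. hystrix had 1 and 1 reads of PC-20-3p and 3.5 and 2 of PC-20-5p. All of these counts are small, and PC-20-5p was below the level needed for a test.

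Pairs of tested sequences that differ by 1 base were compared by their share within the pair, which does not depend on scaling between libraries. Of 32 such pairs, the groups did not overlap in 17 (53.1%). The less abundant member, by reads summed over the same 4 libraries, had the higher share in both allotetraploid libraries in 9 pairs (28.1%). It had the lower share in 8 (25%). A sequence can stand in several pairs. miR319c, with C20T against miR319a, held 51.2% and 61.1% of the pair in the allotetraploid, against 37.4% and 24.8% in C. sativus, the last from 23 reads (exact 95% interval 10.2% to 48.4%). miR166a-v2, with T1G against miR166a, held 5.67% and 3.72%, against 3.07% and 2.49%. The variant miR166e, with C20T against miR166a, held 0.0881% and 0.0859%, against 0.148% and 1.65%. In miR167, the forms ending in A and T were lower in the allotetraploid: miR167a (G21A) held 2.36% and 3.03% beside miR167d, against 6.68% and 33.3% in C. sativus, and miR167c (G21T) held 7.25% and 10.1%, against 23.1% and 17.1%. In miR396, relatives of the main form miR396b held smaller shares in the allotetraploid. miR396e (A7G) held 17.8% and 6.42% beside miR396b, against 48.3% and 27.1%, and miR396a (G21T) held 19.6% and 7.33%, against 32% and 44.3%. In C. hystrix, miR396e held 13.8% and 6.9% and miR396a 9.06% and 10.1%. The rule by which the table shares out reads that match several loci was not given in the sources used here.

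**Figure D5:**
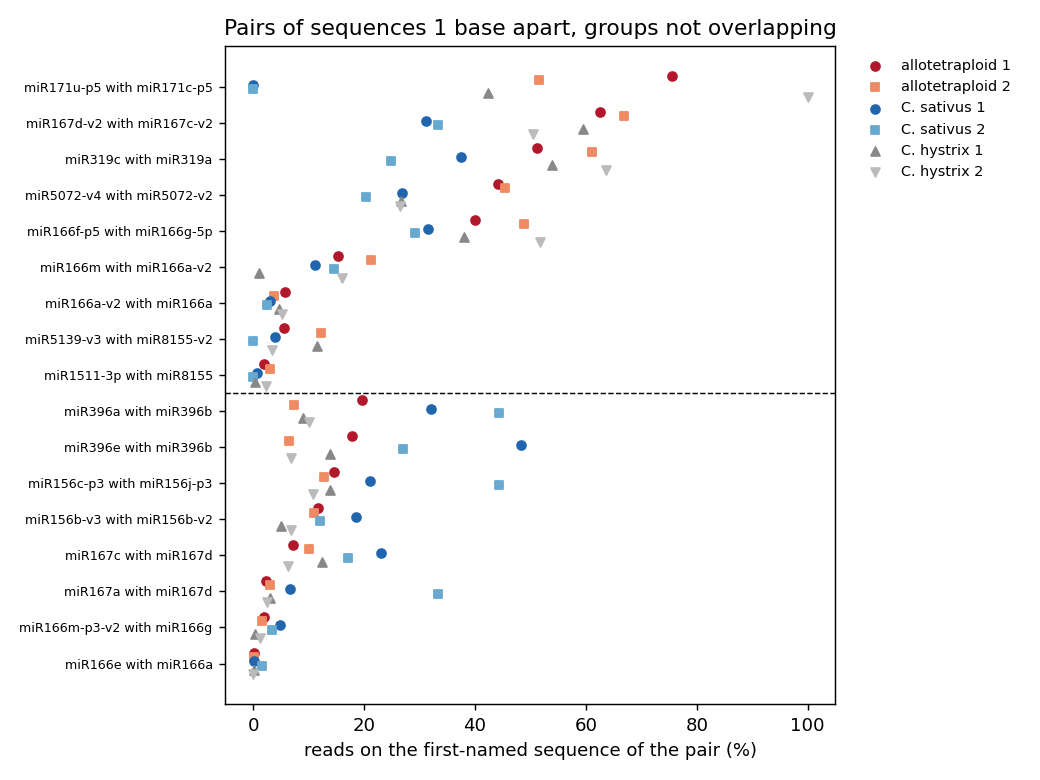
Share (%) of the reads of a pair that fall on the first-named sequence, for the 17 pairs 1 base apart whose groups do not overlap, in each mature leaf library. Above the dashed line the allotetraploid share is higher than in both C. sativus libraries (9 pairs) and below it lower (8 pairs), with miR171u-p5 at 75.6% and 51.6% in the allotetraploid and 0% in both C. sativus libraries.

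Both strands were tested for 41 different pairs of strands from 1 hairpin. The less abundant strand is the one with fewer reads summed over these same 4 libraries, and the allotetraploid gave more of those reads. This choice favours a smaller share in the allotetraploid, so the direction of the counts and medians below cannot be read as a result. Its share was lower in both allotetraploid libraries than in both C. sativus libraries in 13 pairs (31.7%) and higher in 1 (2.44%). The median share was 13.7% and 11.2% in the allotetraploid, against 21.1% and 25.5% in C. sativus. miR168-p3 held 5.72% and 25.3% of the reads of its hairpin in the allotetraploid, against 65.9% and 31.8% in C. sativus, so that it was the main strand in C. sativus 1. For miR172b the opposite strand miR172b-p5 held 15.1% and 6.99%, against 41.7% and 31.9%. For miR397 it was 0.679% and 2.52%, against 5.22% and 15.4%, and for miR166a-v2 the strand miR166g-5p held 13.7% and 5.89%, against 30.9% and 47.1%. miR396e held 9.58% and 6.31% beside miR396e-p3, against 47.4% and 25.5%. The pair with the higher share was miR5368-p3 beside miR5368-p5, fragment-like sequences, at 13.8% and 17.7%, against 2.29% and 13%. Of the strand shares given here, the smallest count stands behind miR172b in C. sativus 2, with 16 reads on both strands (exact 95% interval 11% to 58.7%). A strand of a sequence listed at several hairpins was counted in each, so these pairs are not independent of each other.

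Detection at low levels differed most with the C. sativus library. With reads rounded to whole numbers, 1 read or more was found for 377 and 360 of the 733 entries in the allotetraploid and for 488 and 317 in C. sativus. Reduced to the depth of C. sativus 2, the expected numbers were 331 and 303 in the allotetraploid, against 408 and 317. In all 4 libraries 176 entries were found, and in none of them 108. Both allotetraploid libraries and no C. sativus library held 11 entries on this rounded count, of which only miR171u-p5 had enough reads to be tested. Both C. sativus libraries and no allotetraploid library held 33 entries, of which only PC-20-3p could be tested, and none exceeded 16 reads. Both allotetraploid libraries and C. sativus 1 but not C. sativus 2 shared 63 entries, against 7 shared with C. sativus 2 but not C. sativus 1. With 3 reads as the limit, an entry with no read could still have been at up to 13.44 and 10.44 CPM in the allotetraploid and at up to 10.1 and 15.2 CPM in C. sativus.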

How the data were processed

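Small RNA was sequenced from mature leaves (Illumina HiSeq, per the labels' protocols). The authors deposited 1 table of listed miRNAs, and the submitters' processing notes name Bowtie 0.12.8. Genome build, miRBase release and the way reads were counted were not given in the sources used here. Positions are printed as listed. What the deposited table heads as raw reads was taken for estimated counts, since 80.5% of them are whole within 1e-06, and were rounded to whole numbers. The deposited normalized reads, a signal, equal the raw reads times 1 constant per library. The precursor GC percent, per the file headers, and the other deposited columns served for description. The table has 843 lines for 733 sequences, and 101 sequences listed at several loci were taken once. Sequences were copied from the table. The columns of sample values that matched no sample numbered 0.

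Entries were kept by filterByExpr over 4 groups, scaled by TMM and tested with edgeR 4.0.16 in R 4.3.3 (robust quasi-likelihood test over all 8 libraries, 4 residual degrees of freedom, two-sided, Benjamini-Hochberg adjustment over 208 entries, threshold 0.05). The filter is based on reads, so an entry can have passed through the higher group alone. CPM are rounded reads relative to TMM-scaled library size, and the SE is the size of the log2 fold change divided by the square root of F. Family sums, each sequence counted once, were tested in the same way over 86 rows. Differences from single libraries used log2(CPM + 1). Shares have exact (Clopper-Pearson) 95% intervals. The test was run on simulated data first. Alternatives used DESeq2 1.42.0, limma 3.58.1, other scalings and filters, a replicate block, and fits without each library. Entries named in the text were taken by rank and by group: those past the threshold, the 10 largest differences on each side among entries whose groups do not overlap, the most abundant entries overall and per family, entries absent from 1 group, the largest gaps between the C. sativus libraries, and the copper and phase lists. Members of 1-base pairs and hairpins were also named. The members and lists were chosen with earlier results of these data known.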

Additional observations from a re-analysis of the deposited data

How the results depend on the processing

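PC-169-5p stayed higher under all 22 alternatives, by 7.29 to 13.02 on the log2 scale. The count of entries past the threshold, 1 over all libraries, was 4 with DESeq2 and ranged from 0 to 51 when single libraries were left out (0 without either allotetraploid library or without C. hystrix 2, and 51 without C. sativus 1). With the entries kept anew, an alternative chosen after seeing the data, the count without C. sativus 1 was 55. The other scalings and filters left 1 call. The number of family sums past the threshold, 1, was 2 with TMM from conserved families and ranged from 1 to 19 when single libraries were left out, with 19 without C. sativus 1. Entries above both C. sativus libraries, 40, were 22 with scaling to total listed reads and 61 without a filter. Those below both, 22, were 35 with TMM from conserved families, 38 with total listed reads and 74 without a filter. With the deposited normalized values, also chosen after seeing the data, they were 33 and 31. Scaling to total listed reads turned miR172e from +0.75 to −0.06, along with a general shift that left 67 of all tested entries above 0 instead of 110. A cause particular to miR172e was not tested. Scaling moved the median of all tested entries, +0.16 with TMM, to −0.22 with RLE, −0.37 with TMM from conserved families and −0.55 with total listed reads. Entries above and below 0 numbered 110 and 98 with TMM and 90 and 118 with RLE, so differences under about that shift carry no direction. Without C. hystrix 1 the median was −0.09, with 99 entries above 0 and 109 below. The replicate block gave 1 call for entries and 1 for family sums and changed no other call. Deviations of same-numbered libraries had a correlation of −0.01 between the allotetraploid and C. sativus. Over all pairs of groups it ran from −0.12 to 0.27, the latter for C. hystrix with the young allotetraploid. A correlation over all entries cannot exclude a batch shared by same-numbered libraries.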
